A study of Mus musculus with 8 samples.

Results

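The Bcl2 family genes described here are 10 named genes, found by gene symbol in the deposited gene table, and 8 of the 10 have a row among the 13101 genes of that table. They are Bcl2l10, Mcl1 and Bcl2l1 on the pro-survival side, the effector Bax, and the BH3-only genes Bik, Bid, Bcl2l11 and Pmaip1. The effector Bak1 and the BH3-only gene Bbc3 had no row and were not analysed here. RNA was measured in 8 pools of mouse embryos at the 2-cell stage, 4 lacking Dux (Dux KO) and 4 wild type (WT), all on the C57BL/6 background and collected after timed matings. Each pool held 12 to 18 embryos, and polyadenylated RNA was amplified with a kit for low input before sequencing. The labels give neither the embryos' parents nor the number of knockout lines, so a p-value here reflects pool-to-pool spread, which may be technical. The Dux protein is a homeobox factor that acts at genome activation, and the comparison asks which transcripts differ when it is lost.

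Proteins of the Bcl2 family decide whether the outer mitochondrial membrane is opened during apoptosis. Bax and Bak1 form the pores, pro-survival proteins such as Mcl1 and Bcl-xL (the product of Bcl2l1) hold them in check, and BH3-only proteins either bind and block the pro-survival proteins or activate the effectors directly. Bcl2l10, also called Diva or Boo in the mouse, is a member known for its high expression in oocytes and was described as a pro-survival protein, although its activity has been reported to vary with the cell type. Oocytes and cleavage embryos carry much of their RNA from the mother, so that a transcript measured at the 2-cell stage can be maternal, zygotic or both.

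The feature that gives BH3-only proteins their name is the BH3 segment, a short helix that fits into a groove of the pro-survival proteins. Its core was searched in the coding sequences of GENCODE M21 (GRCm38) as a leucine codon (CTN, TTA or TTG), 3 further codons, then GGN and GAT or GAC, in frame. Of the 8 members 7 held at least 1 such match, and of 10741 tested genes with a complete coding sequence 14.8% did. The following stretches of 36 bases, all on the coding strand and read 5′ to 3′, are shown because the pattern was found in members of both sides. The leucine codon and the GGN and GAT or GAC codons are in capitals.
Bik, chr15:83543075-83543110, plus strand, exon 3: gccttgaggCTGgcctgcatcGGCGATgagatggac
Bid, chr6:120897289-120897324, minus strand, exon 4: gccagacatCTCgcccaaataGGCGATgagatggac
Bcl2l11, chr2:128147141-128147176, plus strand, exon 3: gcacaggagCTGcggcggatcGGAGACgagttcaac
Bax, chr7:45465997-45466032, minus strand, exon 3: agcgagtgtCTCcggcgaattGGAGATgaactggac
Mcl1, chr3:95659427-95659462, plus strand, exon 1: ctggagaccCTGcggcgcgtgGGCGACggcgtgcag
Bcl2l1, chr2:152829697-152829732, minus strand, exon 2: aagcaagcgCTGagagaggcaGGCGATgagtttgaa
Bcl2l10, whose coding sequence has 192 codons, held no match. Among other family genes the BH3-only Bad and Bmf and the pro-survival Bcl2l2 held none, while Bok, Bcl2l14 and Becn1 each held 1. A missing match thus does not show that the segment is absent. Pmaip1 held 2 matches and its sequence is not shown.

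The 8 pools held 12343369 to 14548526 gene reads, as recovered from the deposited values. The Dux transcript, which would check the labels, was not analysed here, since 0 rows of the gene table carry its name. All 12 markers fixed for oocytes and 2-cell embryos had a row, and their summed level was 6322 to 7524 FPKM in WT and 5058 to 8226 FPKM in Dux KO. This sum joins opposite changes. Its largest part, Dppa3, was called lower, from 5244 ± 467 to 3445 ± 279 FPKM, while Oosp1 was called higher, from 1106 ± 255 to 2298 ± 1171 FPKM. FPKM are by definition fragments per length of gene and sequencing depth, a scale per length on which genes can be compared. The deposited values do not follow the library totals alone. Summed over all genes they were 434070 to 488076 in WT pools and 377779 to 425287 in Dux KO pools. Of markers of cells that a pool could carry along, 3 of 11 for cumulus and granulosa cells (Inha, Cyp19a1 and Tnfaip6) and 3 of 6 for oviduct epithelium (Ovgp1, Epcam and Muc16) had a row, and 0 of 7 for blood and 0 of 6 for sperm. The 3 cumulus and granulosa markers summed to 1.25 to 9.07 FPKM in WT, against 4.44 to 18.8 FPKM for Dux KO, and Cyp19a1 was called higher, from 0.420 ± 0.147 to 1.06 ± 0.311 FPKM. Among the oviduct markers Epcam was called lower, from 132 ± 11.4 to 90.4 ± 19.5 FPKM. Ovgp1 was not called, and its mean went the other way, from 4.96 ± 4.53 to 10.5 ± 8.52 FPKM (limma adjusted p = 0.213). The groups overlapped for Ovgp1, and its highest value, 22.0 FPKM, was that of Dux KO replicate 2. Muc16 had too low a mean to be tested. The part of these cumulus, granulosa and oviduct markers in the results was not tested. The defining granulosa genes Foxl2, Amh and Fshr were among those without a row.

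Of the 8 members, 2 were higher in Dux KO, none was lower and 6 did not pass (limma on log2(FPKM + 1), adjusted p under 0.05 over 12434 genes). The 2 that rose stand on opposite sides of the family, the pro-survival Bcl2l10 and the BH3-only Bik. Among all genes tested 15.5% were higher and 18.1% lower, 33.6% together, so that 2 of 8 is no larger a share than the background. At an unadjusted limma p under 0.05 the pro-survival Bcl2l1 would be added as higher, and Mcl1 and Pmaip1 as lower. The share of all genes at that looser threshold was not determined, and the 33.6% above does not apply to it. The members' median log2 fold change was 0.09, against -0.02 over all genes tested. The pools held 12 to 18 embryos each, and values scaled between libraries do not show the amount of RNA per embryo.

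**Figure D1:**
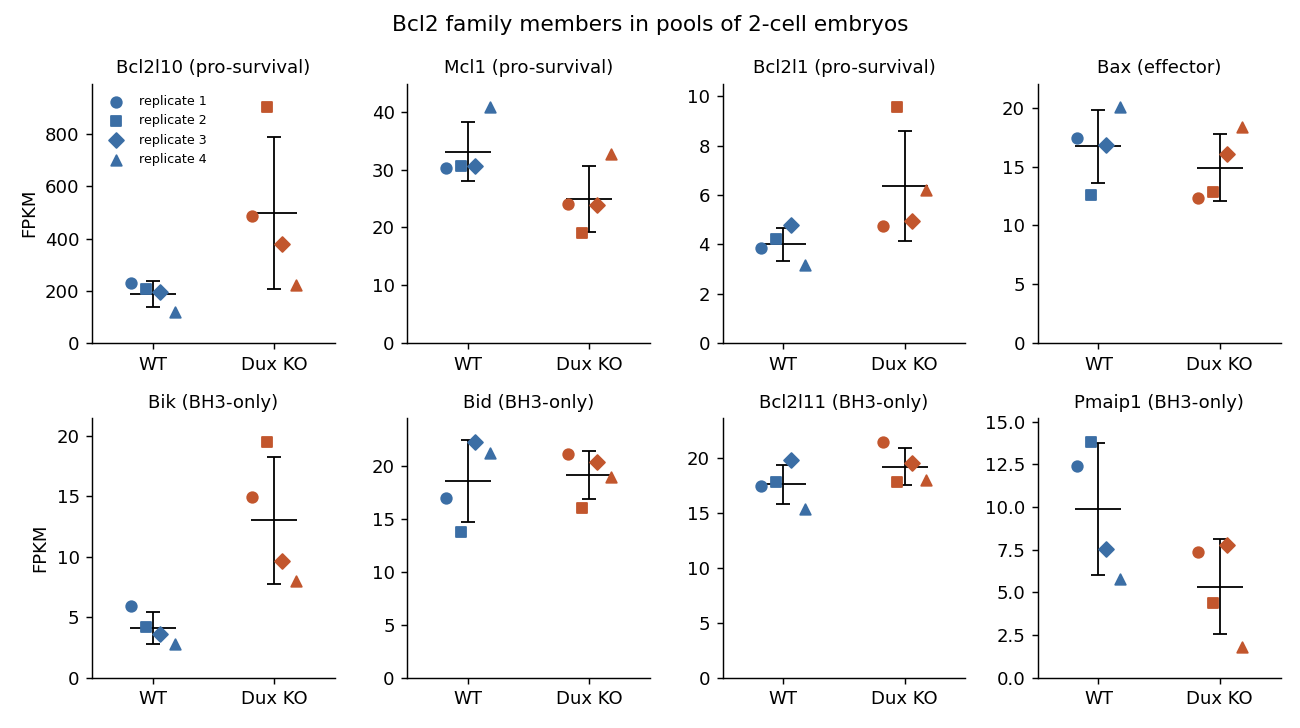
FPKM of the 8 members in each of the 4 WT (blue) and 4 Dux KO (orange) pools, 1 panel per gene, with the marker shape giving the replicate number, and the mean and SD as the horizontal and vertical bars. All Dux KO pools of Bik, at 7.98 to 19.5 FPKM, lie above all WT pools, at 2.82 to 5.93 FPKM, while the groups overlap in the other 7 panels.

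Bcl2l10 (chr9:75347758-75351632, GRCm38, plus strand) was by far the most abundant member in every pool. It was at 229, 208, 194 and 117 FPKM in WT replicates 1 to 4, against 485, 904, 378 and 222 FPKM in the Dux KO pools, replicates 1 to 4. Dux KO replicates 1, 2 and 3 lay above all WT pools, and Dux KO replicate 4 fell just under the highest WT pool. The mean rose from 187 ± 49.1 to 497 ± 292 FPKM (SD, n = 4). The log2 fold change was 1.27, with a 95% interval of 0.48 to 2.06 (limma adjusted p = 0.0219). The SD was 26.2% of the mean in WT and 58.7% in Dux KO. These levels rest on 1902 to 17584 reads per pool. The call ended without WT replicate 4 (log2 fold change 1.06, limma adjusted p = 0.0642), without Dux KO replicate 1 (1.22, limma adjusted p = 0.0545) and with both Dux KO replicates 1 and 2 left out (0.67, limma adjusted p = 0.156), and the direction did not change.

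Of the 12 oocyte and 2-cell markers, Oosp1, Zfp352 and Tcstv3 were lowest in WT replicate 4 and highest in Dux KO replicate 2, as was Bcl2l10. Zfp352 (58.2 ± 17.1 and 56.3 ± 13.8 FPKM) and Tcstv3 (56.2 ± 22.8 and 53.5 ± 23.0 FPKM) were not called. Oosp1, which encodes an oocyte-secreted protein, was at 1256, 1264, 1176 and 728 FPKM in WT replicates 1 to 4, against 2003, 4008, 1814 and 1368 FPKM in the Dux KO pools, replicates 1 to 4. The groups did not overlap, and Oosp1 was called higher (log2 fold change 0.97, limma adjusted p = 0.0311). Zp3, a glycoprotein of the zona pellucida that is made in growing oocytes, went the other way, from 198 ± 20.03 to 91.5 ± 19.9 FPKM (a log2 change of -1.13, limma adjusted p = 0.00297). Among the 12 oocyte and 2-cell markers 1 was higher and 4 were lower in all. Their part in the level of Bcl2l10 was not tested. Of the granulosa markers Inha was highest in Dux KO replicate 4, at 16.0 FPKM, the Dux KO pool with the least Bcl2l10. It was next highest in Dux KO replicate 2, at 9.18 FPKM, the pool with the most Bcl2l10. Dux KO replicates 1 and 3 were at 1.21 and 0.869 FPKM.

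The 5 named genes whose log2(FPKM + 1) followed Bcl2l10 most closely over the 8 pools were Bmt2, Creb3l4, Dpp10, Hirip3 and Nudt5, with Pearson correlations of 0.996, 0.993, 0.991, 0.990 and 0.989. Predicted gene models were left out of this search. The correlations take in the difference between the groups and the spread within them, and they are the highest of a search over all genes tested. Creb3l4, a membrane-bound transcription factor, was at 12.1 to 24.5 FPKM in WT and 26.6 to 94.1 FPKM in Dux KO. Hirip3, a nuclear protein that binds the histone chaperone Hira, was at 17.7 to 33.9 FPKM in WT and 30.99 to 116 FPKM in Dux KO. In both genes WT replicate 4 was the lowest of the 8 pools and Dux KO replicate 2 the highest, as in Bcl2l10. These pools were also at the ends of the main axis of variation over all genes tested (principal component 1, 58.1% of the variance). The order is therefore not particular to these genes.

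Mcl1 (chr3:95658788-95663176, plus strand), which encodes a short-lived pro-survival protein needed for survival of the early embryo in the mouse, was the second pro-survival member by level. It was at 30.4, 30.6, 30.7 and 40.8 FPKM in WT replicates 1 to 4, against 24.1, 19.0, 23.9 and 32.7 FPKM in the Dux KO pools, replicates 1 to 4. Dux KO replicates 1, 2 and 3 lay under all WT pools, while Dux KO replicate 4 stood within the WT range. The means were 33.1 ± 5.14 and 24.9 ± 5.70 FPKM, and the difference did not pass (log2 fold change -0.41, 95% interval -0.81 to -0.01, limma adjusted p = 0.0974). It passed without Dux KO replicate 4 (log2 fold change -0.55, limma adjusted p = 0.0347) and with both Dux KO replicates 3 and 4 left out (-0.60, limma adjusted p = 0.0468). In 17 of 20 alternatives it did not pass, among them without WT replicate 4 (-0.31, limma adjusted p = 0.245). WT replicate 4 and Dux KO replicate 4, with the least Bcl2l10 of their groups, had the most Mcl1, and Dux KO replicate 2, with the most Bcl2l10, had the least.

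**Figure D2:**
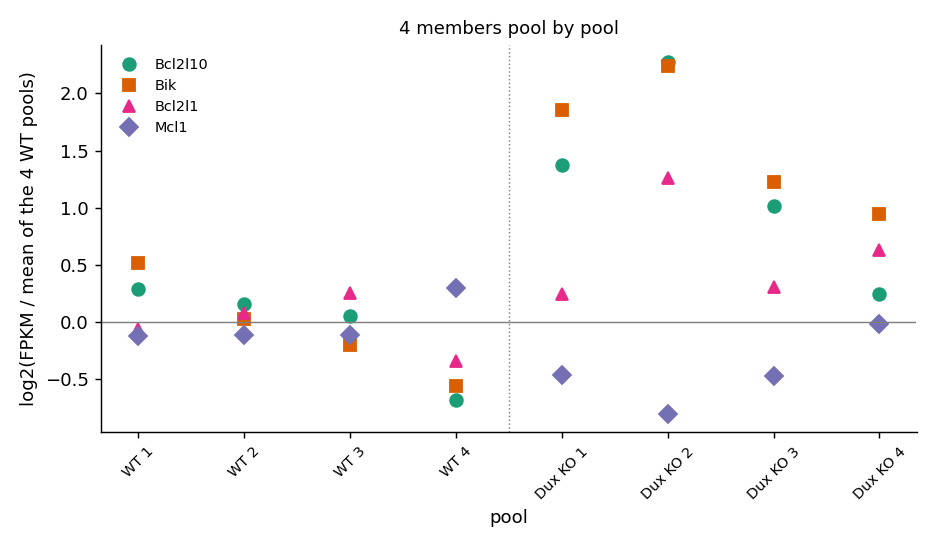
FPKM of Bcl2l10, Bik, Bcl2l1 and Mcl1 in each pool, drawn as log2 of the ratio to the mean of the 4 WT pools of the same gene, with WT left of the dotted line. Bcl2l10 and Bik lie furthest above their WT means in Dux KO replicate 2, at 904 and 19.5 FPKM, where Mcl1 is lowest, at 19.0 FPKM.

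Bcl2l1 (chr2:152780668-152831728, minus strand), whose main product is the pro-survival protein Bcl-xL, was low beside both. It was at 3.83, 4.22, 4.76 and 3.16 FPKM in WT replicates 1 to 4, against 4.73, 9.55, 4.94 and 6.18 FPKM in the Dux KO pools, replicates 1 to 4. Dux KO replicate 1 overlapped with WT replicate 3, and the other Dux KO pools were above all WT pools. The means were 3.99 ± 0.673 and 6.35 ± 2.23 FPKM, and the difference did not pass (log2 fold change 0.52, 95% interval 0.06 to 0.99, limma adjusted p = 0.0746). In the authors' deposited table it was past the threshold (log2 fold change 0.67, adjusted p = 0.0425). On recovered reads it also passed, by edgeR (log2 fold change 0.70, adjusted p = 0.0439) and by DESeq2 (log2 fold change 0.70, adjusted p = 0.0238). Without Dux KO replicate 2 the limma log2 fold change was 0.33 (limma adjusted p = 0.185). Transcripts of Bcl2l1 that encode its short, pro-death isoform were not told apart, since the table gives 1 value per gene.

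Bax (chr7:45461697-45466898, minus strand), the effector that moves to mitochondria when activated, did not pass. It was at 17.5, 12.6, 16.8 and 20.05 FPKM in WT replicates 1 to 4, against 12.3, 12.8, 16.0 and 18.4 FPKM in the Dux KO pools, replicates 1 to 4. The groups covered nearly the same range, and the log2 fold change was -0.16 (95% interval -0.56 to 0.25, limma adjusted p = 0.52). Of the exon bases of Bax 12.2% overlap with exons of the predicted gene Gm45808 on the same strand.

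Bik (chr15:83526862-83544634, plus strand), a BH3-only protein that acts at the endoplasmic reticulum and binds pro-survival members, was the member of largest change. It was at 5.93, 4.21, 3.60 and 2.82 FPKM in WT replicates 1 to 4, against 14.9, 19.5, 9.67 and 7.98 FPKM in the Dux KO pools, replicates 1 to 4. Every Dux KO pool was above every WT pool, as was so in either direction for 33.1% of all genes tested. The mean rose from 4.14 ± 1.32 to 13.0 ± 5.24 FPKM on 59 to 488 reads per pool. The log2 fold change was 1.41, with a 95% interval of 0.82 to 2.00 (limma adjusted p = 0.00506). The order of the pools was the same as for Bcl2l10 except that WT replicate 1 and Dux KO replicate 4 changed places. The call ended without Dux KO replicates 1 and 2 together (log2 fold change 0.96, limma adjusted p = 0.0529).

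The ratio of Bcl2l10 to Bik was 38.7, 49.5, 53.9 and 41.5 in WT replicates 1 to 4 and 32.5, 46.3, 39.1 and 27.8 in Dux KO replicates 1 to 4. The groups overlapped, with means of 45.9 ± 7.05 and 36.4 ± 8.06. The ratio of Bcl2l10 to Mcl1 was 2.86 to 7.55 in WT, against 6.80 to 47.6 for Dux KO, where replicate 4 was lowest.

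Bid (chr6:120891930-120916853, minus strand), which is cut by caspase 8 to carry death-receptor signals to mitochondria, did not pass. It was at 17.0, 13.8, 22.3 and 21.3 FPKM in WT replicates 1 to 4, against 21.2, 16.0, 20.4 and 19.0 FPKM in the Dux KO pools, replicates 1 to 4. All Dux KO pools lay inside the WT range, and the log2 fold change was 0.05 (95% interval -0.33 to 0.44, limma adjusted p = 0.824). Of its exon bases 17.7% overlap with exons of Bcl2l13 on the other strand, and whether reads were counted by strand is not given in the sources used here.

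Bcl2l11 (chr2:128126038-128162547, plus strand) encodes Bim, a BH3-only protein that binds all main pro-survival members. It was at 17.5, 17.8, 19.8 and 15.4 FPKM in WT replicates 1 to 4, against 21.5, 17.9, 19.6 and 18.1 FPKM in the Dux KO pools, replicates 1 to 4. It varied least of the members from pool to pool, with an SD of 10.3% of the mean in WT and 8.71% in Dux KO, and did not pass (log2 fold change 0.12, 95% interval -0.19 to 0.43, limma adjusted p = 0.516).

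Pmaip1, on chromosome 18, encodes Noxa, a target of p53 that binds Mcl1 and promotes its breakdown. It was at 12.4, 13.8, 7.54 and 5.75 FPKM in WT replicates 1 to 4, against 7.39, 4.35, 7.75 and 1.81 FPKM in the Dux KO pools, replicates 1 to 4. Dux KO replicate 4 was the lowest of all pools, with 69 reads, and WT replicates 1 and 2 the highest, while the rest of the pools overlapped. The means of 9.88 ± 3.85 and 5.33 ± 2.79 FPKM did not differ past the threshold (log2 fold change -0.84, 95% interval -1.63 to -0.05, limma adjusted p = 0.0889). Without Dux KO replicate 4 the log2 fold change was -0.50 (limma adjusted p = 0.21).

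**Figure D3:**
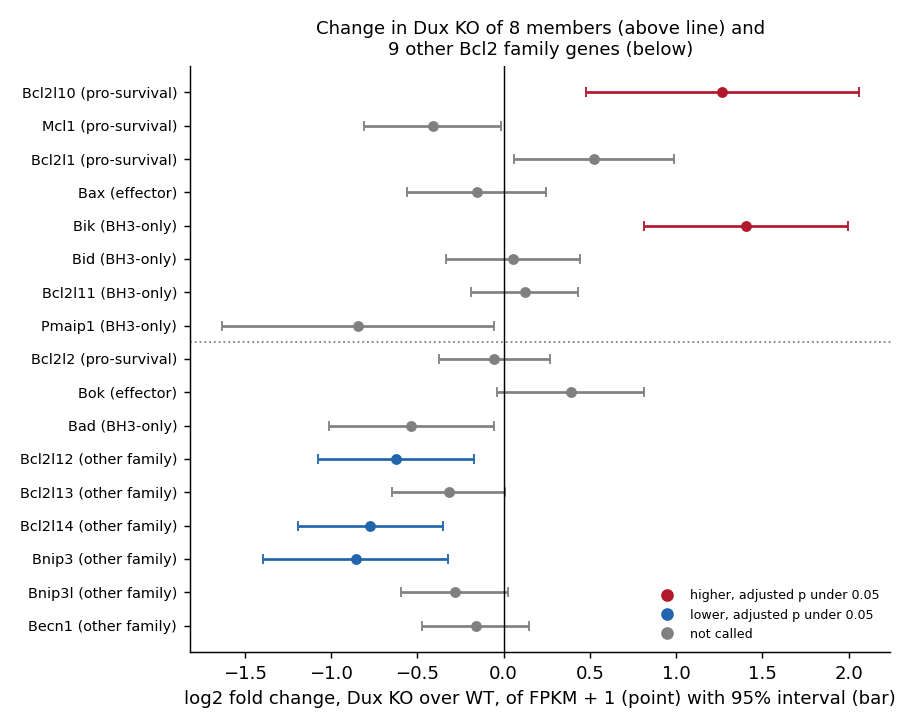
Log2 fold change of FPKM + 1, Dux KO over WT, with its 95% interval for the 8 members (above the dotted line) and 9 other Bcl2 family genes (below), coloured by the limma call. Bcl2l10 and Bik are to the right at 1.27 and 1.41, and Bcl2l12, Bcl2l14 and Bnip3 to the left at -0.62, -0.77 and -0.86.

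The balance of the sides was described by summed FPKM, with no test, since it is a score over the members. Pro-survival members summed to 264, 243, 229.5 and 161 FPKM in WT replicates 1 to 4 and to 514, 933, 406 and 261 FPKM in Dux KO replicates 1 to 4. Pro-death members, here Bax, Bik, Bid, Bcl2l11 and Pmaip1, summed to 62.2 to 70.3 FPKM in WT and 65.2 to 77.3 FPKM in Dux KO. The pro-death sum thus stayed in a narrow range while its makeup differed, with Bik at 4.31 to 8.44% of it in WT, against 12.3 to 27.6% for Dux KO. The ratio of pro-survival to pro-death FPKM was 3.75, 3.91, 3.28 and 2.46 in WT replicates 1 to 4 and 6.65, 13.2, 5.54 and 4.01 in Dux KO replicates 1 to 4. All Dux KO pools were above all WT pools, with Dux KO replicate 4 close to WT replicate 2. On the log2 scale the mean was 1.72 ± 0.301 in WT and 2.73 ± 0.727 in Dux KO, a difference of 1.01 that was 0.51 without Dux KO replicates 1 and 2 and 0.68 without Dux KO replicate 2.

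Bcl2l10 made up 72.6 to 87.0% of the pro-survival sum in WT and 85.1 to 96.9% in Dux KO. With Bcl2l10 left out, pro-survival members summed to less than pro-death members in every pool. The ratio was then 0.487, 0.560, 0.506 and 0.674 in WT replicates 1 to 4 and 0.373, 0.404, 0.393 and 0.597 in Dux KO replicates 1 to 4. Dux KO replicates 1, 2 and 3 lay under all WT pools, so that the direction was the opposite, with a difference of -0.35 on the log2 scale. Messenger RNA levels do not give the amounts of the proteins, and Bak1 and Bbc3 are missing from these sums. Bcl2l10 was counted as pro-survival here, although its activity has been reported to vary with the cell type. The direction of the balance depends on that choice.

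**Figure D4:**
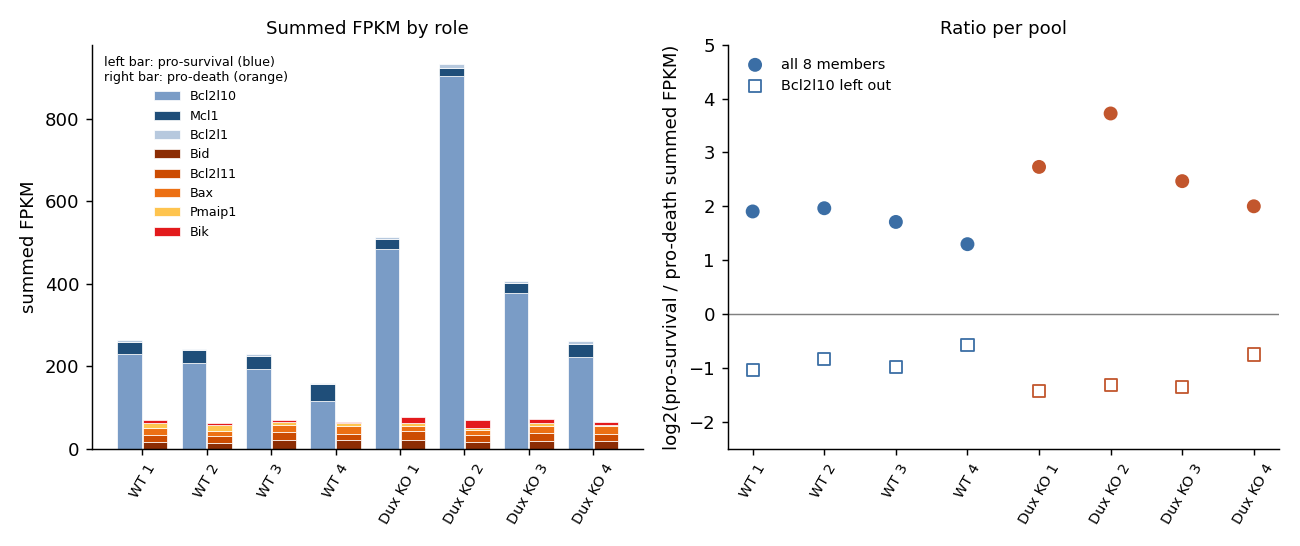
Left, summed FPKM of pro-survival members (blue shades) and pro-death members (orange shades) in each pool, stacked by gene; right, log2 of the ratio of the sums with all 8 members (filled circles) and without Bcl2l10 (open squares), WT in blue and Dux KO in orange. Bcl2l10 fills 72.6 to 96.9% of the pro-survival bars, and without it all pools lie under a log2 ratio of 0.

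Among further genes of the family Bnip3, Bcl2l14 and Bcl2l12 fell. Of 17 listed, 10 had a row and 9 were tested, and 3 of the 9 were lower in Dux KO, none was higher and 6 did not pass (median log2 fold change -0.32, against -0.02 over all genes tested). Their called share of 33.3% is that of the background. Bcl2, Bcl2a1a, Bcl2a1b, Bcl2a1c, Bcl2a1d, Hrk and Bcl2l15 had no row.

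Bnip3, a mitochondrial protein known for mitophagy under low oxygen, was at 84.4, 74.9, 116 and 115 FPKM in WT replicates 1 to 4, against 68.3, 31.2, 62.3 and 57.0 FPKM in the Dux KO pools, replicates 1 to 4. Every Dux KO pool was under every WT pool (log2 fold change -0.86, 95% interval -1.39 to -0.32, limma adjusted p = 0.022). The call ended without WT replicate 3 or 4 (limma adjusted p = 0.0544 and 0.0628), under quantile normalization (0.0586) and with both Dux KO replicates 1 and 2 left out (0.0731). Of the exon bases of Bnip3 22.3% overlap with exons of Gm45507 on the other strand. Its paralogue Bnip3l was at 24.7 ± 2.57 and 20.1 ± 1.54 FPKM and did not pass (limma adjusted p = 0.134).

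Bcl2l14, also called Bcl-G, was at 30.5, 25.9, 29.4 and 42.3 FPKM in WT replicates 1 to 4, against 19.8, 13.1, 20.5 and 19.8 FPKM in the Dux KO pools, replicates 1 to 4. The groups did not overlap, and WT replicate 4 was again the highest and Dux KO replicate 2 the lowest (log2 fold change -0.77, 95% interval -1.19 to -0.35, limma adjusted p = 0.0134). With both Dux KO replicates 1 and 2 left out it was -0.62 (limma adjusted p = 0.0948). Of the exon bases of Bcl2l14 14.1% overlap with 4933406J09Rik on the other strand. Bcl2l12 was lower too, from 6.56 ± 1.53 to 3.91 ± 1.14 FPKM (a log2 change of -0.62, limma adjusted p = 0.0375). Its groups overlapped, and its call ended in 9 of 20 alternatives, among them without any 1 of WT replicates 1, 2 and 4 and Dux KO replicates 1, 2 and 4 (limma adjusted p = 0.0555 to 0.0982). Of its exon bases 28.9% overlap with exons of Gm15545 on the other strand.

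The BH3-only gene Bad, whose product is held inactive by phosphorylation, was at 5.03 ± 1.29 and 3.17 ± 0.964 FPKM (a log2 change of -0.53, limma adjusted p = 0.078). Bad passed without WT replicate 2 (limma adjusted p = 0.0376) and did not pass in 17 of 19 alternatives. Bok, an effector related to Bax, was at 3.68 ± 0.866 and 5.12 ± 1.14 FPKM (limma adjusted p = 0.136), and Bcl2l13 at 9.99 ± 0.930 and 7.83 ± 0.972 FPKM (limma adjusted p = 0.117). Becn1, an autophagy protein with a BH3 segment, and Bcl2l2, a pro-survival gene, did not pass either (log2 fold changes -0.16 and -0.05). Exon bases overlap here too, on the other strand for Becn1 (43.9%, with Cntd1), Bad (20.5%, with Gpr137) and Bcl2l13 (6.91%, with Bid). For Bcl2l2 13.3% overlap with Gm20521 on the same strand. Bmf, a BH3-only gene, was under the minimum for testing. Its reads were 18, 1, 29 and 0 in WT replicates 1 to 4 and 29, 60, 30 and 58 in Dux KO replicates 1 to 4, with WT replicate 3 reaching Dux KO replicate 1.

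Downstream of the family, 3 of 16 tested genes of the mitochondrial steps of cell death were higher in Dux KO, 3 were lower and 10 did not pass (median log2 fold change -0.08). The called share of 37.5% is near the 33.6% of all genes tested. Mff, the receptor for the fission protein Drp1, rose from 16.4 ± 2.97 to 34.2 ± 5.88 FPKM (a log2 change of 1.02, limma adjusted p = 0.00376). Htra2, a protease of the intermembrane space, rose from 1.23 ± 0.502 to 2.61 ± 0.474 FPKM, and Opa1, which fuses inner membranes and keeps cristae tight, from 4.39 ± 0.810 to 7.57 ± 1.39 FPKM (log2 fold changes 0.71 and 0.67). Aifm1, a flavoprotein of the intermembrane space, fell from 16.9 ± 1.36 to 10.01 ± 1.56 FPKM (a log2 change of -0.71, limma adjusted p = 0.00778). Diablo, which frees caspases from their inhibitors, fell from 4.03 ± 0.370 to 2.55 ± 0.327 FPKM, and Birc6, one of those inhibitors, from 2.71 ± 0.569 to 1.60 ± 0.176 FPKM (log2 fold changes -0.51 and -0.50). The Birc6 call ended in 8 of 19 alternatives, among them without any 1 of WT replicates 2, 3 and 4 and Dux KO replicates 1, 2 and 3 (limma adjusted p = 0.0547 to 0.0901). The groups did not overlap for any of these 6 genes, 37.5% of those tested, against 33.1% of all genes.

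Among regulators and partners of the family, 4 of 23 tested were higher, 2 were lower and 17 did not pass (median log2 fold change 0.07). The called share of 26.1% is under the 33.6% of all genes tested, and the difference was not tested. Foxo3, a transcription factor known to drive Bcl2l11 and Bbc3, rose from 5.77 ± 0.698 to 10.5 ± 2.91 FPKM (a log2 change of 0.74, limma adjusted p = 0.0165). Ywhaz, a 14-3-3 protein that holds Bad in the cytosol, rose from 10.01 ± 1.14 to 17.5 ± 3.42 FPKM. Vdac2, the outer membrane channel that binds Bak and Bax, rose from 18.0 ± 1.59 to 27.0 ± 3.94 FPKM (log2 fold changes 0.74 and 0.55). Bclaf1, a nuclear protein first found as a partner of Bcl2, fell from 31.2 ± 7.003 to 18.3 ± 4.02 FPKM, and Bag1, a chaperone cofactor that binds Bcl2, from 199 ± 24.5 to 137 ± 15.6 FPKM (log2 fold changes -0.73 and -0.53). Under quantile normalization that of Bag1 was -0.29 (limma adjusted p = 0.126). Without Dux KO replicates 1 and 2, none of these 4 higher and 2 lower regulators and 1 of the 6 downstream genes was called (Mff). Of all genes tested 353 were then higher and 447 lower. Without WT replicate 4, 1 downstream gene, 0 regulators and 1348 of all genes were lower. Without Dux KO replicate 1, 1 downstream gene was lower and 2 regulators were higher and 1 lower. Of all genes 1260 were then higher and 1426 lower, against 1933 and 2249 with all pools. Trp53, which encodes p53, was not called, nor was Mdm2, which encodes its main ubiquitin ligase.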

How the data were processed

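RNA-seq values of 8 pools were used, grouped by the sample titles. The gene table deposited by the authors gives FPKM, and the repeat table FPM, treated as a signal. Both tables hold a mean signal over samples, and the authors' log2 fold change and Benjamini-Hochberg adjusted p-value per the file headers. The submitters' processing notes list Trimmomatic 0.32, STAR 2.6.1a, SAMtools 1.7 and the build GRCm38. Not given in the sources used here were the counter, annotation, strand setting and test. No gene had a mean under 25.0 counts, so a missing row does not show that a gene was silent.

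Each gene's FPKM values rise in steps worth 1 read in a library. Reads recovered this way were whole within 0.05 for 100% of values, and the steps of the repeat table, used for this alone, lay close to those of the gene table. The steps do not follow the library totals alone.

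The 12434 genes whose mean reached 0.5 FPKM were fitted with limma 3.58.1 in R 4.3.3 on log2(FPKM + 1), with variance trend and robust moderation, all 8 pools and no covariate; this scale understates changes of low genes. Calls used a two-sided Benjamini-Hochberg adjusted p under 0.05 over all genes tested. The procedures were tested on simulated data. On recovered reads edgeR 4.0.16 (quasi-likelihood) called 2133 genes higher and 2324 lower, and DESeq2 1.42.0 2470 and 2551. Within each group, pools differed beyond counting noise (chi-square per degree of freedom 13.8 to 117). Coordinates and coding sequences are from GENCODE M21. Alternatives were another pseudocount (0.1), no low-value filter, a minimum mean of 5 FPKM, quantile and median-of-ratios scaling, the replicate block, plain limma, the deposited p-values, edgeR, DESeq2, and leaving out pools.

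The members and lists were chosen with earlier results of these data known. All members and other family genes with a row are named. From the downstream and regulator lists at most 3 called genes in each direction are named, by size of change, as are the 5 genes most like the most abundant member. Trp53 and Mdm2 were named after their values were seen.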

Additional observations from a re-analysis of the deposited data

Results flagged for a closer look

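Within each group of 4 pools the gap of the highest or lowest pool to its nearest neighbour was set against the whole range. This was done for 30 genes and 4 sums or ratios, 68 groups in all, and 5 passed Dixon's critical value, where chance gives about 1 in 20. Mcl1 was at 40.8 FPKM in WT replicate 4, far above the other WT pools at 30.4 to 30.7. Bcl2l12 stood apart in Dux KO replicate 3, at 5.598 FPKM, and Bcl2l14 in Dux KO replicate 2, at 13.1 FPKM. Ywhaz was at 11.7 FPKM in WT replicate 2, above the other WT pools. The ratio of pro-survival to pro-death FPKM without Bcl2l10 was 0.597 in Dux KO replicate 4, against 0.373 to 0.404 in the other Dux KO pools.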

How the results depend on the processing

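Bcl2l10 and Bik kept their direction in all 20 alternatives, with log2 fold changes of 0.67 to 1.86 and 0.96 to 1.85. Their calls ended in 3 and 1 of them, all of them settings that leave out pools. Leaving out 1 pool gave 1 to 2 members higher and 0 to 1 lower. Other family genes then numbered 0 higher and 1 to 3 lower, downstream genes 3 to 4 higher and 1 to 4 lower, and regulators 2 to 4 higher and 0 to 2 lower. Calls over all genes tested fell too when 1 pool was left out, to 1179 to 1912 higher and 1348 to 2133 lower. With all pools these were 1933 and 2249. Without Dux KO replicates 1 and 2, 353 genes were higher and 447 lower of all tested, and 0 members, 0 other family genes (lower), 1 and 0 downstream genes and 0 and 0 regulators were higher and lower. Without Dux KO replicates 3 and 4, 1 member was lower, as were 2102 of 12416 genes tested. With no filter 1 other family gene was higher (Bmf), as were 1985 of 13101 genes. At a minimum mean of 5 FPKM the median of all genes was -0.18, and 1032 were higher and 1880 lower. Of downstream genes 12 were then tested and 1 was lower, and Diablo and Birc6 were under that minimum. Under quantile normalization 1 regulator was lower, as were 1904 of 12434 genes tested. The difference in the log2 ratio of the sums reversed to -0.35 without Bcl2l10. Mean pro-survival FPKM was then 37.1 for WT pools and 31.3 for those lacking Dux. The pro-death means were 67.0 and 71.6, and the groups overlapped in both sums. Small log2 fold changes turned sign. That of Bax was 0.054 without Dux KO replicates 1 and 2. That of Bid ranged from -0.073 (without WT replicate 2) to 0.145 when 1 pool was left out, and that of Bcl2l2 from -0.139 to 0.035 (above 0 without Dux KO replicate 2 or 3). Scaling by median of ratios cannot move a ratio within a pool. The causes were not tested.

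Replicate numbers did not pair all pools: correlations of deviations of same-numbered pools were -0.115, 0.328, -0.055 and 0.302, and not every pool correlated best with its own number. Pools of unlike number were at -0.404 to 0.271, under the values for numbers 2 and 4. Whether some pools were paired was not tested. With the replicate block 2 members were lower (Mcl1 and Pmaip1, limma adjusted p = 0.042 and 0.0263), Bad was called lower (0.042), and Bcl2l12 and Mapk8 were not called. Of 12434 genes tested 2141 were then higher and 2591 lower, against 1933 and 2249 without the block. Depth limits Bmf (0 to 60 reads per pool), Htra2 (27 to 134), Bcl2l2 (33 to 72) and, among the members, Bik (59 to 488).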
